A study of Mus musculus with 8 samples.

Results

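The MHC class I presentation genes are the 10 loci of the table whose gene symbol is H2-K1, H2-D1, B2m, Tap1, Tap2, Tapbp, Psmb8, Psmb9, Psmb10 or Nlrc5. They were chosen by name as parts of the pathway, with earlier results of these data known. All 10 were found among 23735 loci and passed the filter on low values. RNA was sequenced from peritoneal macrophages of 8-week-old C57BL/6J mice in 4 groups of 2 libraries, marked A and B in each group. The groups are MED1-/- macrophages (from MED1ΔMac mice, a macrophage deletion of the Mediator subunit gene Med1) with LPS, MED1-/- without LPS, floxed WT macrophages (MED1fl/fl) with LPS, and WT without LPS. LPS, the cell wall component of Gram-negative bacteria sensed by TLR4, was given at 50 ng/mL over 6 h. The sources used here name no Cre driver and do not state that libraries of a group come from different animals, so p-values measure only the spread between these libraries.

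MHC class I molecules show peptides from inside the cell to CD8+ T cells. Each is a polymorphic heavy chain, such as H2-K or H2-D in the mouse, bound to the light chain beta-2-microglobulin. The peptides are cut by proteasomes, which exchange their catalytic subunits for inducible ones to become immunoproteasomes, then pumped into the endoplasmic reticulum by the TAP transporter and loaded with the help of tapasin. Interferon gamma, in part through IRF1, induces most of these genes, and NLRC5 is the transactivator that binds class I promoters with the RFX, CREB/ATF and NF-Y factors. NF-kB, which LPS activates, also has sites in class I heavy chain and B2m promoters.

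Of the 10 genes, 7 lie on chromosome 17 of mm9, most of them in the MHC. Psmb9 (34318932 to 34324697, minus strand), Tap1 (34324498 to 34334170, plus), Psmb8 (34334666 to 34338399, plus) and Tap2 (34340472 to 34353266, plus) follow each other there. Tapbp (34052844 to 34066235) and H2-K1 (34132962 to 34137278) lie on one side of that cluster, and H2-D1 (35399675 to 35404444) on the other. B2m is on chromosome 2 (121973422 to 121978819), and Psmb10 (108459628 to 108462292) and Nlrc5 (96996663 to 97051172) are on chromosome 8.

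Promoter windows from RefSeq (GRCm38.p6, 300 bases around a gene's start) were matched by symbol to 8 of the 10 genes, leaving out Tap2 and Nlrc5. The 4 windows shown are those of the heavy chains, which share their elements but differed in their LPS values, of B2m, and of Tap1, whose window is also that of Psmb9. All are written 5′ to 3′ in the direction of the gene, and capitals mark matches to the NF-kB consensus, the ISRE core in either spacing, and the CCAAT box that NF-Y binds. H2-K1 (chr17:34000284-34000583, minus strand), H2-D1 (chr17:35262844-35263143, plus), B2m (chr2:122147437-122147736, plus) and Tap1 (chr17:34187306-34187605, plus) read as follows.
H2-K1: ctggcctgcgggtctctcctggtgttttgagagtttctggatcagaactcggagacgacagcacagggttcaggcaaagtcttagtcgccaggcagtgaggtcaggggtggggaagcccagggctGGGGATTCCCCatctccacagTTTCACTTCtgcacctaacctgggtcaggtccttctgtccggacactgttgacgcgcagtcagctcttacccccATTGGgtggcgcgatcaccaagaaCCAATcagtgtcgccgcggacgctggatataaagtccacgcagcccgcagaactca
H2-D1: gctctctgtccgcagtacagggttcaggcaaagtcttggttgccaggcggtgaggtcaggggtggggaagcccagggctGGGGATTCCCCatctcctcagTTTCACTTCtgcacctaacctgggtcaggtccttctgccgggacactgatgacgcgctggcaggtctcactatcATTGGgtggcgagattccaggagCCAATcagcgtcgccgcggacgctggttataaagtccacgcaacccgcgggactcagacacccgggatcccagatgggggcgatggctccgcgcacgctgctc
B2m: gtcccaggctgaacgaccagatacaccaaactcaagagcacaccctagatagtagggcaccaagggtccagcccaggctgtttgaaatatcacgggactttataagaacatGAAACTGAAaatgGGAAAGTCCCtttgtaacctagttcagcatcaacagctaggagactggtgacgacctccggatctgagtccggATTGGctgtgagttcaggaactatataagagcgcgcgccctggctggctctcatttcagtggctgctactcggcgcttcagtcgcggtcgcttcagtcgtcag
Tap1: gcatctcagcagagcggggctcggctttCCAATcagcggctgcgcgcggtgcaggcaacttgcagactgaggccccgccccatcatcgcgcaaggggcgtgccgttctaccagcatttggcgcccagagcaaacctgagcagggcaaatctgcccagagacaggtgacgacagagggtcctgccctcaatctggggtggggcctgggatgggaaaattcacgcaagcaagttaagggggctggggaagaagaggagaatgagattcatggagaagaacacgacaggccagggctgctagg

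The H2-K1 and H2-D1 windows share a run of 47 bases that holds the NF-kB match GGGGATTCCCC, and in both a TTTCACTTC and 2 CCAAT boxes follow it. Matches to the NF-kB consensus, searched on both strands, were found for H2-K1, H2-D1 and B2m, and in 4.51% of all 32851 windows. The ISRE core, GAAANNGAA, was found for B2m alone of the 8 (8.56% of all windows), and the same core in mirrored spacing, GAANNGAAA, for H2-K1 and H2-D1 (7.52%). The mirrored spacing was added to the search after the sequences had been seen. The GAS motif TTCNNNGAA was found for Psmb8 alone (8.3%). CCAAT was present in 6 of 8 windows (37.4% of all) and the CRE core TGACGT in 0 of 8 (7.51%), which says only that these letters are not in these windows. Tap1 and Psmb9 are transcribed away from each other from starts 226 bases apart, so 275 bases of their windows are the same DNA, and the CCAAT at -222 of Tap1 is the ATTGG at -8 of Psmb9.

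As levels in RPKM (reads scaled to transcript length and to the mapped reads of a library), which can be compared between genes, the members spanned a wide range. B2m averaged 3175 RPKM over the 8 libraries and ranked 12 of all loci, H2-D1 averaged 1685 (rank 26) and H2-K1 986 (rank 59). In every library B2m exceeded H2-D1, and H2-D1 exceeded H2-K1. Tapbp averaged 162 RPKM, Psmb8 115 and Psmb10 74.6, each overlapping its neighbour in this order across libraries. Tap2 averaged 48.2, Tap1 45.7 and Psmb9 44.1 RPKM, and these 3 overlapped widely across libraries. Nlrc5 was lowest at 22.4 RPKM, with a range that overlapped that of Psmb9. The highest library exceeded the lowest by 1.24 times for B2m and 1.57 times for H2-K1, against 8.15 times for Tap1 and 5.28 times for Nlrc5.

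**Figure D1:**
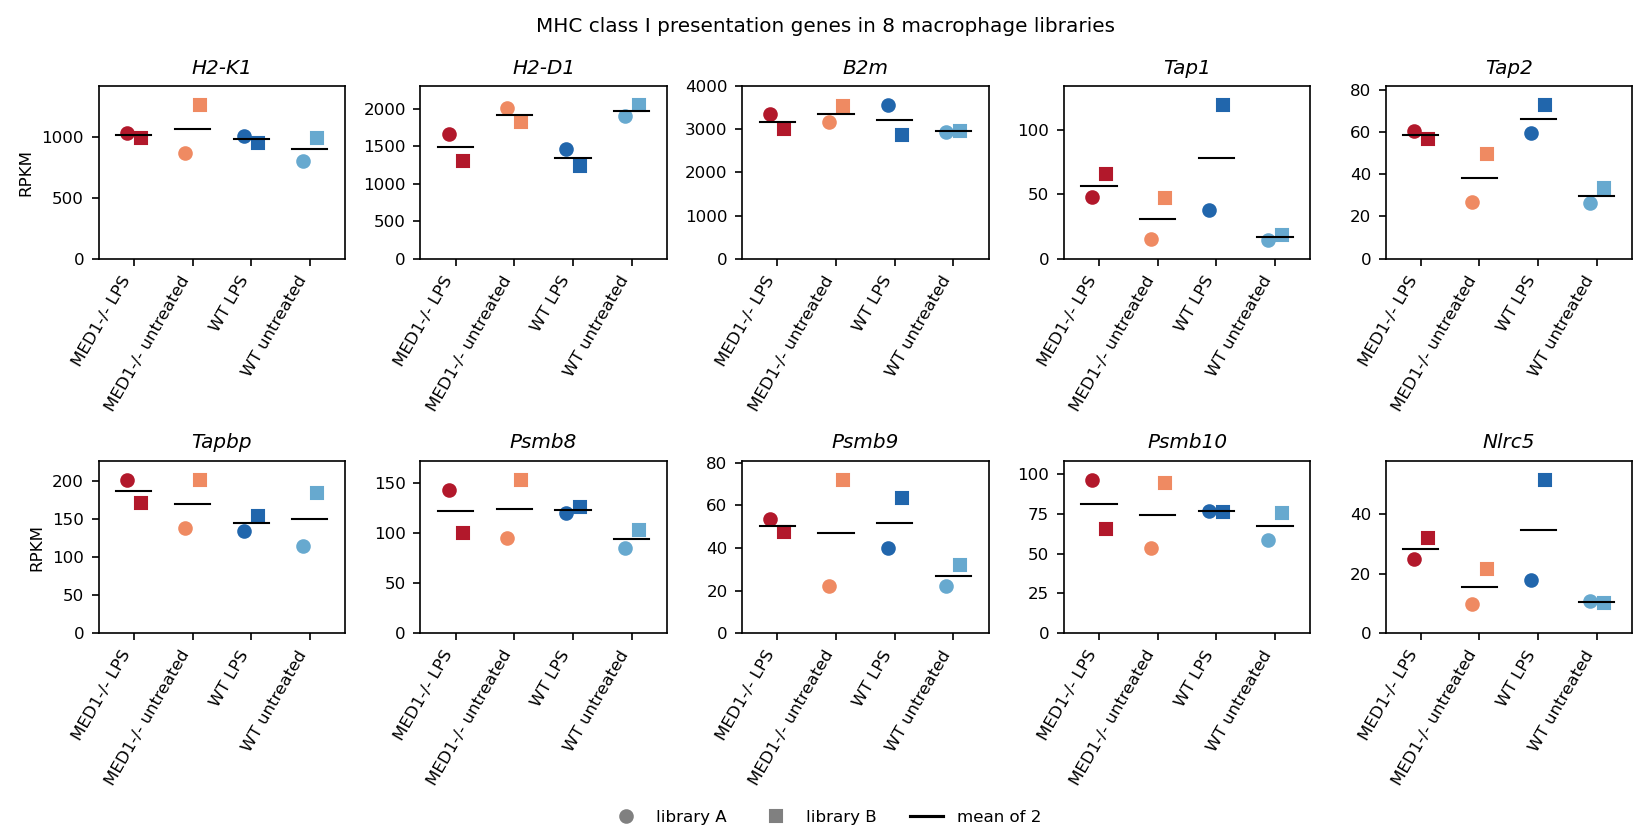
RPKM of each gene in the 8 libraries, with circles for library A, squares for library B and a line at the mean of the 2 libraries of a group. H2-D1 lies lower in all 4 LPS libraries than in all 4 untreated ones, while Tap1 and Nlrc5 are highest in WT LPS B and Psmb9 in MED1-/- untreated B.

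Facts of all libraries frame these values. Depth was estimated at 6.96 to 14.3 M mapped reads per library, and counting error at the member with the fewest reads was a CV of 3.9%. Med1 RNA was not lower in the MED1-/- libraries past the test (17.6 to 24.4 RPKM, against 21.6 to 24.8 RPKM in WT; log2 difference -0.12, 95% interval -0.47 to 0.24), and the deleted exons are not given, so MED1-/- below means libraries labelled so. Of 10 macrophage markers with a locus, all passed the filter. Their summed levels were 6234 to 7244 RPKM in MED1-/- with LPS and 11419 to 18553 in MED1-/- without LPS. In WT they were 15045 to 19662 with LPS and 31781 to 35579 without. Lyz2 made up most of each sum. It stood at 5111 and 4547 RPKM in MED1-/- with LPS and 8503 and 15001 without. In WT it stood at 17329 and 13231 RPKM with LPS and 28588 and 32317 without. Averaged over treatments, 0 of the 10 markers passed for MED1-/- against WT, with 4 differences positive and 6 negative. The gap between genotypes in these sums thus mainly follows Lyz2. With LPS averaged over genotypes 5 of the 10 fell (Cd68, Lyz2, Mertk, Gata6 and Alox15) and 0 rose, against 21.8% and 8.46% of all loci. Emr1 (F4/80) lay between 277 and 709 RPKM. Of 8 B cell markers, 7 had a locus and all 7 passed the filter, with summed levels of 1042 to 1437 RPKM in MED1-/- with LPS, 593 to 1787 in MED1-/- without LPS, 430 to 623 in WT with LPS and 584 to 647 in WT without. Of 10 T and NK cell markers, 6 passed the filter, with sums of 7.46 to 30.2, 5.94 to 55.4, 5.85 to 13.7 and 7.97 to 20.1 RPKM in the same order of groups, and the NK receptor Ncr1 was listed at 0 in all 4 A libraries. All 6 mast cell markers passed the filter, with sums of 3.06 to 71.7, 0.25 to 168, 25.2 to 87.7 and 0.96 to 73.6 RPKM, and 0 of 6 mesothelial markers passed. Of 6 dendritic cell markers 3 passed the filter, with sums of 9.67 to 22.1, 8.41 to 24.6, 10.1 to 11.3 and 7.17 to 21.3 RPKM and 0 calls with LPS. Of 5 neutrophil markers with a locus, Camp alone passed the filter and rose with LPS (3.21, adjusted p = 0.0059), at 9.83 and 12.03 RPKM in MED1-/- with LPS, 0 and 0.61 in MED1-/- without, 13.0 and 27.5 in WT with LPS and 0 and 3.72 in WT without. The neutrophil granule genes Mpo and Elane were listed at 0 in 7 of 8 libraries and Ngp in all 8. For the B cell, the T and NK cell and the mast cell markers, MED1-/- untreated B had the highest sum of all libraries. In every group the B library held the higher sum for the T and NK cell, the mast cell and the dendritic cell markers. For the B cell markers that was so in MED1-/- without LPS alone. B cells and other leukocytes also express class I genes, fewer cells of a type and less RNA per cell cannot be told apart in such samples, and the part of these cells in the results below was not tested.

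LPS was followed by higher RNA for the peptide transporter and for Nlrc5, while the abundant heavy and light chains did not pass the test. Averaged over both genotypes, Tap1, Tap2 and Nlrc5 passed the test as higher and 0 of 10 as lower. For comparison, 8.46% of the 11272 loci tested passed as higher and 21.8% as lower. The median log2 change was 0.19 over the 10 genes and -0.26 over all loci, and 9 of the 10 changes were positive, against 28.9% of all loci. Median-ratio scaling moved the all-locus median up by 0.26 and kept the same 3 calls.

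Among the heavy chains, H2-K1 stood at 1030 and 987 RPKM in MED1-/- with LPS, 866 and 1257 in MED1-/- without LPS, 1007 and 945 in WT with LPS and 802 and 992 in WT without (libraries A and B). The treated libraries lay inside the range of the untreated ones. Its log2 change with LPS, averaged over genotypes, was 0.04 (SE 0.19, 95% interval -0.41 to 0.49, adjusted p = 0.885).

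H2-D1 stood at 1672 and 1308 RPKM in MED1-/- with LPS, 2019 and 1821 in MED1-/- without, 1468 and 1233 in WT with LPS and 1907 and 2053 in WT without. All 4 treated libraries were below all 4 untreated ones, in both genotypes. The log2 change was -0.47 (SE 0.19, 95% interval -0.91 to -0.02), with an adjusted p of 0.0977 that misses the threshold of 0.05, and it was -0.16 under median-ratio scaling and -0.61 under quantile normalization. Within each library the log2 ratio of H2-K1 to H2-D1, which no scaling of libraries can move, was -0.70 and -0.41 in MED1-/- with LPS, -1.22 and -0.54 in MED1-/- without, -0.54 and -0.38 in WT with LPS and -1.25 and -1.05 in WT without. The ratio was higher with LPS for both letters of both genotypes, by the least for MED1-/- B. The H2-D1 locus also carries H2-L and a predicted gene. Of the 50-base windows of the longest coding transcript, 14.3% for H2-D1 and 8.87% for H2-K1 occur in coding transcripts of other genes. The split of reads among heavy chains is thus uncertain.

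B2m, the light chain, stood at 3352 and 3000 RPKM in MED1-/- with LPS, 3175 and 3546 in MED1-/- without, 3560 and 2870 in WT with LPS and 2948 and 2953 in WT without. Its groups overlapped, and the log2 change with LPS was 0.02 (SE 0.20, 95% interval -0.45 to 0.49). None of the 50-base windows of its longest coding transcript occurs in a coding transcript of another gene.

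Both chains of the peptide transporter rose. Tap1 stood at 48.1 and 65.4 RPKM in MED1-/- with LPS, 15.3 and 47.0 in MED1-/- without, 37.5 and 119 in WT with LPS and 14.6 and 18.4 in WT without. Within each letter of each genotype the treated library was higher, although MED1-/- untreated B exceeded WT LPS A. The log2 change was 1.50 (SE 0.44, adjusted p = 0.0411). Tap2, its partner in the heterodimer, stood at 60.4 and 56.8 RPKM in MED1-/- with LPS, 26.7 and 49.5 in MED1-/- without, 59.7 and 72.8 in WT with LPS and 26.3 and 33.5 in WT without. All treated libraries were above all untreated ones, and the log2 change was 0.90 (SE 0.21, adjusted p = 0.0214). The log2 ratio of Tap1 to Tap2 was above 0 only in MED1-/- LPS B (0.20) and WT LPS B (0.71), and lay between -0.86 and -0.08 in the other 6 libraries.

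Tapbp encodes tapasin, which bridges TAP and the empty class I molecule. It stood at 201 and 171 RPKM in MED1-/- with LPS, 138 and 201 in MED1-/- without, 134 and 154 in WT with LPS and 115 and 184 in WT without. The groups overlapped and the log2 change was 0.07 (SE 0.21, 95% interval -0.42 to 0.55).

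The 3 immunoproteasome subunits did not pass the test. Psmb9 (LMP2) stood at 53.8 and 47.3 RPKM in MED1-/- with LPS, 22.3 and 71.9 in MED1-/- without, 40.1 and 63.5 in WT with LPS and 22.01 and 31.9 in WT without. In WT both treated libraries exceeded both untreated ones, whereas in MED1-/- the untreated pair enclosed the treated one. Its log2 change was 0.61 (SE 0.36, adjusted p = 0.223), and 1.02 (adjusted p = 0.0296) without MED1-/- untreated B. Psmb8 (LMP7) stood at 143 and 100 RPKM in MED1-/- with LPS, 94.7 and 153 in MED1-/- without, 120 and 126 in WT with LPS and 84.7 and 102 in WT without, a log2 change of 0.19 (SE 0.20, adjusted p = 0.486). Psmb10 (MECL-1) stood at 96.2 and 65.5 RPKM in MED1-/- with LPS, 53.7 and 94.1 in MED1-/- without, 76.9 and 76.1 in WT with LPS and 58.6 and 75.7 in WT without, a log2 change of 0.18 (SE 0.22, adjusted p = 0.565). The WT libraries with LPS were above those without for Psmb8 and Psmb10 too, but for Psmb10 the closest of them (76.1 against 75.7 RPKM) differed by less than counting error. The longest coding transcripts of Psmb8, Psmb9 and Psmb10 share none of their 50-base windows with coding transcripts of other genes. Opposite strands were not searched, and the mm9 spans of Psmb9 and Tap1 overlap on opposite strands.

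Each inducible subunit takes the place of a constitutive one, Psmb8 of Psmb5, Psmb9 of Psmb6 and Psmb10 of Psmb7. Their ratio within a library describes their balance at the RNA level, and either gene of a pair can move it. The log2 ratio of Psmb9 to Psmb6 was -1.25 and -1.60 in MED1-/- with LPS, -2.54 and 0.09 in MED1-/- without, -1.43 and -0.56 in WT with LPS and -2.18 and -1.72 in WT without. It was thus higher with LPS in WT for both letters, by 0.75 and 1.17. In MED1-/- it was higher with LPS by 1.30 for letter A and lower by 1.69 for letter B. The ratio of Psmb8 to Psmb5 differed in the same way, by 1.40 and -1.18 in MED1-/- and by 0.67 and 0.04 in WT, and that of Psmb10 to Psmb7 by 0.90 and -1.02 in MED1-/- and 0.27 and 0.07 in WT. All 3 ratios were highest of all libraries in MED1-/- untreated B and lowest in MED1-/- untreated A. The constitutive genes themselves, Psmb5 (155 to 504 RPKM over all libraries, at a locus that also carries Mir686), Psmb6 (67.7 to 143) and Psmb7 (78.9 to 117), had 0 of 3 calls with LPS. They still moved these ratios. Between the MED1-/- B libraries the log2 differences with LPS were 1.07 for Psmb6 and -0.59 for Psmb9. For Psmb5 and Psmb8 they were 0.57 and -0.60, and for Psmb7 and Psmb10 0.49 and -0.52. Between the MED1-/- A libraries they were -0.80, -0.03 and -0.06 for Psmb5, Psmb6 and Psmb7. MED1-/- untreated B held the lowest Psmb6 and Psmb7, and MED1-/- untreated A the highest Psmb5 and Psmb7.

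**Figure D2:**
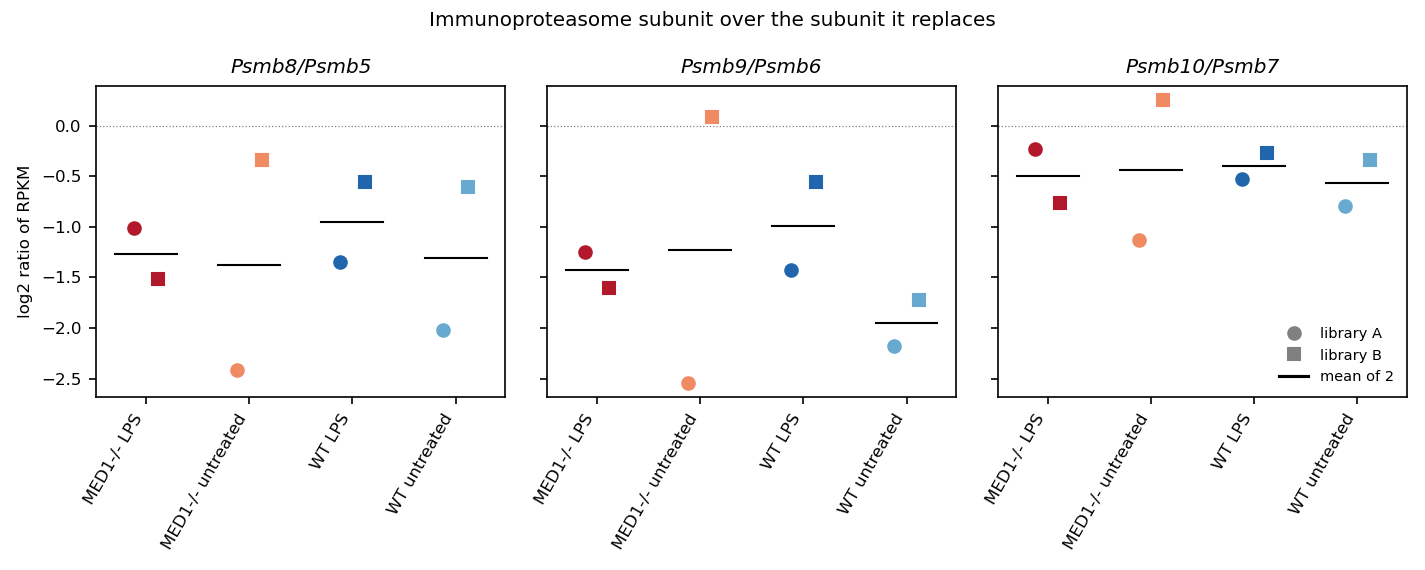
Log2 ratio of the RPKM of each immunoproteasome subunit to that of the constitutive subunit it replaces, by library, with circles for A, squares for B and a line at the group mean; the dotted line marks equal RPKM. MED1-/- untreated A and B mark the lowest and highest value in each panel, and for Psmb9 over Psmb6 both WT LPS libraries lie above both WT untreated ones.

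Nlrc5, the class I transactivator, stood at 24.99 and 31.9 RPKM in MED1-/- with LPS, 9.75 and 21.6 in MED1-/- without, 17.8 and 51.5 in WT with LPS and 10.9 and 10.3 in WT without. Treated libraries were higher within each letter, MED1-/- untreated B exceeded WT LPS A, and WT LPS B stood above all others. The log2 change was 1.17 (SE 0.36, adjusted p = 0.0464).

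The 3 calls changed when single libraries were left out, which also leaves a group with a single library to estimate its mean. Without MED1-/- LPS A the log2 changes were larger than with all libraries, at 1.61 for Tap1 and 1.26 for Nlrc5. Without WT LPS B they were smaller, at 1.09 and 0.80. Without MED1-/- LPS A, MED1-/- LPS B, WT untreated A or WT LPS B, 0 of 10 genes passed. Tap2 alone passed without MED1-/- untreated A or WT untreated B, and Tap1, Tap2, Nlrc5 and Psmb9 passed without MED1-/- untreated B. All 3 log2 changes stayed positive throughout, between 1.09 and 1.91 for Tap1, 0.68 and 1.19 for Tap2 and 0.80 and 1.54 for Nlrc5 over all the alternatives run. MED1-/- untreated B and WT LPS B, which hold the highest Psmb9 and the highest Tap1, were also left out together. That pair was chosen after seeing the data, so the fit is no separate support. The log2 changes were then 1.48 for Tap1, 1.04 for Tap2, 1.07 for Nlrc5 and 0.86 for Psmb9.

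Taken by genotype, 0 of 10 genes passed for LPS in MED1-/- (3.31% of all loci passed as higher and 3.31% as lower) and 0 of 10 in WT (3.17% and 3.14%). At an unadjusted p under 0.05 there were 0 of the 10 in MED1-/- (29.2% of all loci) and 3 in WT (29.3%). In MED1-/- the log2 changes were 1.03 for Tap1 (adjusted p = 0.3), 0.67 for Tap2 (adjusted p = 0.189) and 0.91 for Nlrc5 (adjusted p = 0.271). In WT they were 1.97 for Tap1 (adjusted p = 0.0973), 1.12 for Tap2 (adjusted p = 0.0676) and 1.44 for Nlrc5 (adjusted p = 0.121). In the fit blocked on the letter, these 3 genes passed in WT (adjusted p = 0.0154, 0.0251 and 0.0404 for Tap1, Tap2 and Nlrc5) and 0 genes passed in MED1-/-. Without MED1-/- untreated B and WT LPS B, the pair chosen after seeing the data, the MED1-/- changes were 1.81 for Tap1 and 1.44 for Nlrc5. Leaving out MED1-/- untreated A moved the MED1-/- changes the other way, to 0.25 for Tap1 and 0.37 for Nlrc5. In WT, leaving out WT LPS B gave 1.14 for Tap1 and 0.70 for Nlrc5, and leaving out WT LPS A gave 2.79 and 2.18, both of which passed (adjusted p = 0.0324 and 0.0264).

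The differences were not alike within the 2 letters. Between the A libraries, LPS minus untreated was positive for 9 of 10 genes in MED1-/- (median log2 difference 0.71) and 9 of 10 in WT (0.44), H2-D1 being the exception in both. Between the B libraries it was positive for 3 of 10 in MED1-/- (median -0.29) and 6 of 10 in WT (0.15). The medians over all loci were -0.17 and -0.08 for the A libraries and -0.41 and -0.41 for the B libraries, in MED1-/- and WT. Differences were positive for 36.2% and 42.4% of all loci in the A libraries, and for 25.6% and 26.7% in the B libraries. The 3 genes positive in MED1-/- B were Tap1 (0.47), Tap2 (0.19) and Nlrc5 (0.54). These also passed the averaged test, which includes the same libraries, so the overlap is no separate evidence.

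**Figure D3:**
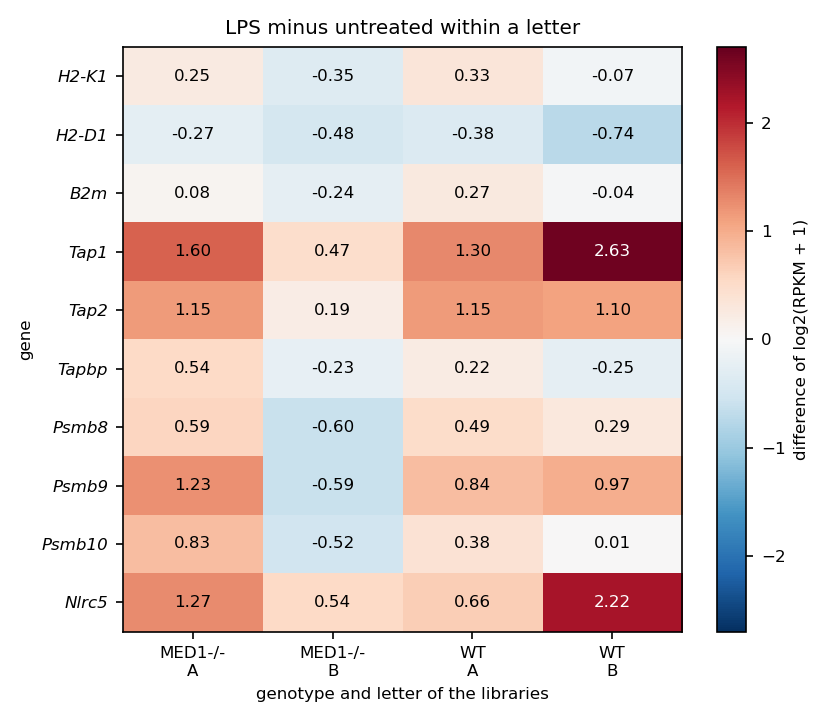
Difference in log2(RPKM + 1) between the LPS and the untreated library of the same letter, for each gene (rows) and each genotype and letter (columns), with red for higher with LPS and blue for lower. Tap1, Tap2 and Nlrc5 are positive in all 4 columns and H2-D1 is negative in all 4, while in MED1-/- B the immunoproteasome genes are negative.

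For MED1 loss, 0 of 10 genes passed in any comparison. The background was low as well, at 0.00887% of all loci for MED1-/- against WT with LPS, 0.0266% without LPS, 0.0355% averaged over treatments and 0.0355% for the interaction, which is the LPS change in MED1-/- minus that in WT. An unadjusted p under 0.05 was reached by 0 of the 10 genes in each, against 4.42% of all loci with LPS, 0.834% without, 4.19% averaged and 1.63% for the interaction. With LPS the median log2 difference over the 10 genes was -0.01 (0.05 over all loci). Tapbp had the largest positive value, 0.36 (95% interval -0.33 to 1.05), and Tap1 the largest negative one, -0.25 (-1.73 to 1.22). The letters differed here too. Between the LPS A libraries 9 of 10 differences were positive, with a median of 0.29 (45.8% of all loci, median -0.03). Between the LPS B libraries 4 of 10 were positive, with a median of -0.27 (66.0% of all loci, median 0.14). Averaged over treatments, 10 of 10 differences were positive (63.8% of all loci), with a median of 0.15 (0.06 over all loci).

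Without LPS the median was 0.25 (0.07 over all loci) and 9 of 10 differences were positive, against 64.1% of all loci. Tap1 stood at 0.68 (95% interval -0.79 to 2.15), Psmb9 at 0.58 (-0.61 to 1.78) and Nlrc5 at 0.43 (-0.77 to 1.63). The size of this positive tilt rested mostly on 1 library. Between the untreated A libraries, 8 of 10 differences were positive, with a median of 0.07 (58.3% of all loci, median 0.04). Between the untreated B libraries 9 of 10 were positive, with a median of 0.44 (60.1% of all loci, median 0.10). With MED1-/- untreated B left out, MED1-/- untreated A was set against both untreated WT libraries. The median was then -0.09, and 8 of the 10 differences changed sign. In MED1-/- untreated B, Tap1 was at 47.0 RPKM against 18.4 in WT untreated B, and Psmb9 at 71.9 against 31.9. MED1-/- untreated A and WT untreated A had 15.3 and 14.6 RPKM of Tap1 and 22.3 and 22.01 of Psmb9.

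The interaction was negative for 8 of 10 genes, with a median of -0.30 (-0.03 over all loci) and a lowest value of -0.93 for Tap1 (95% interval -3.02 to 1.15). It was positive for 46.4% of all loci. Without MED1-/- untreated B the median was 0.05, 4 genes changed sign and Tap1 stood at -0.15; without WT LPS B Tap1 stood at -0.11, and without both libraries the median was 0.24, 7 genes changed sign and Tap1 stood at 0.67. Without MED1-/- untreated A, by contrast, the median was -0.59 and Tap1 stood at -1.71, and without WT LPS A Tap1 stood at -1.75. Intervals of this width leave differences of several fold between the genotypes undetectable for Tap1, Psmb9 and Nlrc5. For B2m, H2-K1 and H2-D1, the genotype difference lay between -0.68 and 0.86 on the log2 scale at 95%, with or without LPS.

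**Figure D4:**
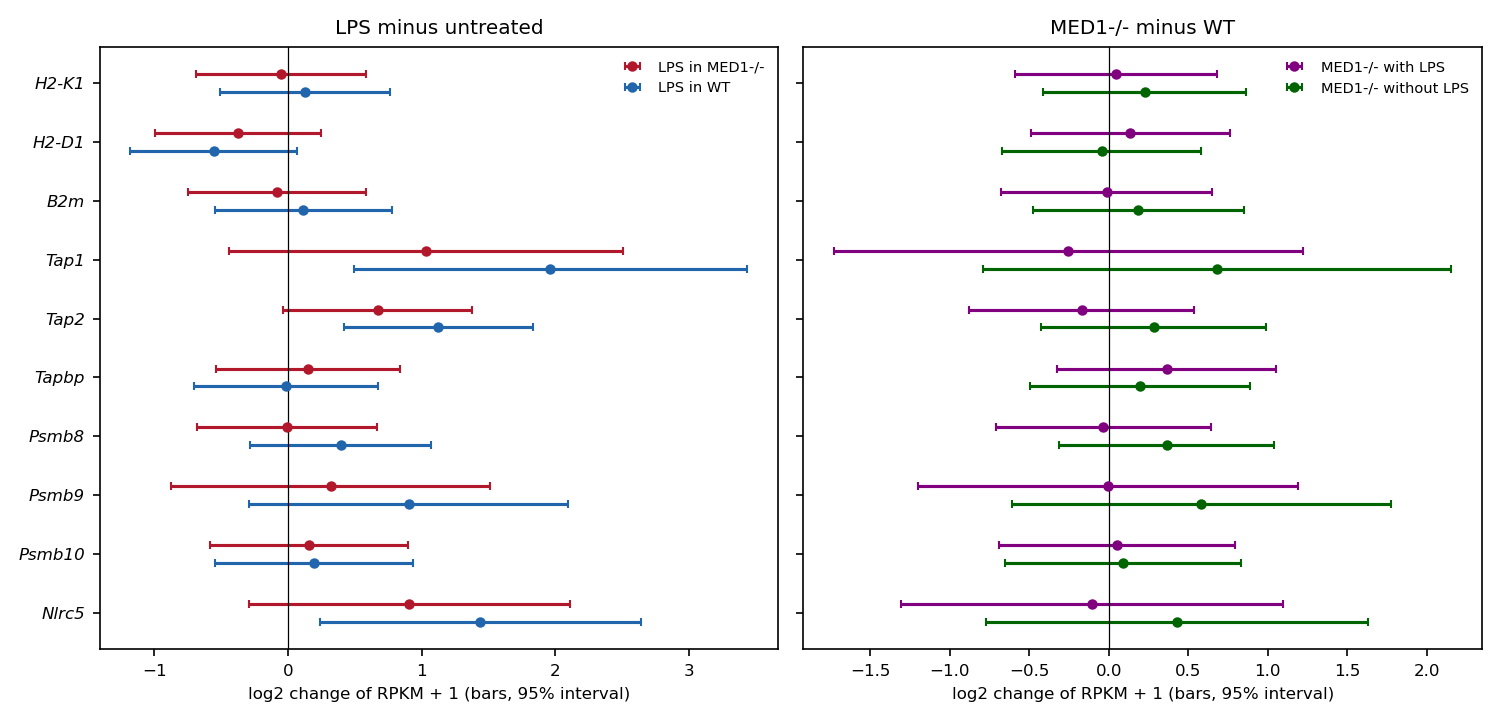
Log2 change of RPKM + 1 for LPS minus untreated by genotype (left) and for MED1-/- minus WT by treatment (right), for each gene, with 95% intervals of the limma fit. The Tap1, Tap2 and Nlrc5 intervals for LPS in WT lie above 0 before adjustment, and all 20 intervals for MED1-/- minus WT cross 0.

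Other genes of the pathway were described as lists. Over all loci, 8.46% passed as higher and 21.8% as lower with LPS averaged over genotypes, and the list counts stand beside these shares. Of 16 tested loci for other class I and class I-like heavy chains, 1 rose with LPS averaged over genotypes and 3 fell. H2-M2, a non-classical heavy chain, had 13.2 and 17.5 RPKM in MED1-/- with LPS, 0.05 and 0.09 in MED1-/- without, 3.02 and 8.13 in WT with LPS and 0.39 and 1.31 in WT without (log2 change 2.84, adjusted p = 0.0019). The iron regulator Hfe (-2.44, adjusted p = 0.0062), the vitamin B metabolite presenter Mr1 (-1.68, adjusted p = 0.0029) and the neonatal Fc receptor heavy chain Fcgrt (-1.41, adjusted p = 0.017) fell. These 3 do not present peptides to CD8+ T cells. H2-T23, which encodes Qa-1, had a log2 change of -0.43 (adjusted p = 0.0948).

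Of 18 genes for peptide trimming and loading, 0 rose and 3 fell, against 8.46% and 21.8% of all loci. Those that fell were the aminopeptidase genes Rnpep (-2.38, adjusted p = 0.0121) and Npepps (-0.68, adjusted p = 0.0335) and the bleomycin hydrolase gene Blmh (-0.45, adjusted p = 0.0395). The loading chaperones Calr (-0.58, adjusted p = 0.0872) and Pdia3 (-0.52, adjusted p = 0.0531) and the trimming enzyme Erap1 (-0.23, adjusted p = 0.356) did not pass. Of 11 proteasome activator and assembly genes, 1 rose, Psme2 of the PA28 activator. It had 423 and 409 RPKM in MED1-/- with LPS, 173 and 273 in MED1-/- without, 365 and 413 in WT with LPS and 144 and 226 in WT without (log2 change 1.02, adjusted p = 0.0149). Psme1, which encodes the other PA28 chain, had a log2 change of 0.18 (adjusted p = 0.532). Of 11 other 20S core subunits, Psma6 alone rose (0.72, adjusted p = 0.0124) and 0 fell. Of 12 partners of Nlrc5 on DNA and chromatin, among them the RFX, NF-Y and CREB/ATF genes, 0 rose and 0 fell, and the largest log2 change was -0.49 (Rfxap, adjusted p = 0.109).

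Of 18 tested genes of interferon and NF-kB signalling, 6 rose and 1 fell. Jak2 (2.46, adjusted p = 0.0022), Nfkb1 (2.14, adjusted p = 0.0024), Irf7 (1.80, adjusted p = 0.0048), Stat2 (1.41, adjusted p = 0.0157), Irf9 (0.86, adjusted p = 0.0227) and Rela (0.66, adjusted p = 0.0164) rose, and the interferon gamma receptor chain Ifngr1 (-0.86, adjusted p = 0.0417) fell. Irf2 (-0.19, adjusted p = 0.496) and Irf8 (0.22, adjusted p = 0.612) did not pass. Of 7 MHC class II genes, 0 passed with LPS, and their summed level was highest in MED1-/- untreated B at 3271 RPKM. None of these lists held a call for MED1-/- against WT or for the interaction.

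Irf1, a transcription factor gene of the interferon gamma axis, was high in the same libraries as Tap1 and Nlrc5. It stood at 153 and 289 RPKM in MED1-/- with LPS, 40.3 and 161 in MED1-/- without, 133 and 564 in WT with LPS and 51.2 and 83.0 in WT without (log2 change with LPS 1.71, adjusted p = 0.061). It was highest in WT LPS B, and among untreated libraries in MED1-/- B, as were Tap1 and Nlrc5. Ifng, the interferon gamma gene itself, is a product of T and NK cells above all. It was at 42.5 RPKM in MED1-/- LPS B and 81.2 in WT LPS B, and between 0 and 0.73 RPKM in the other 6 libraries. Its part in the Tap1 and Nlrc5 values was not tested. In the A libraries, where Ifng was at most 0.73 RPKM, the log2 difference with LPS was 1.60 in MED1-/- and 1.30 in WT for Tap1, and 1.27 in MED1-/- and 0.66 in WT for Nlrc5.

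**Figure D5:**
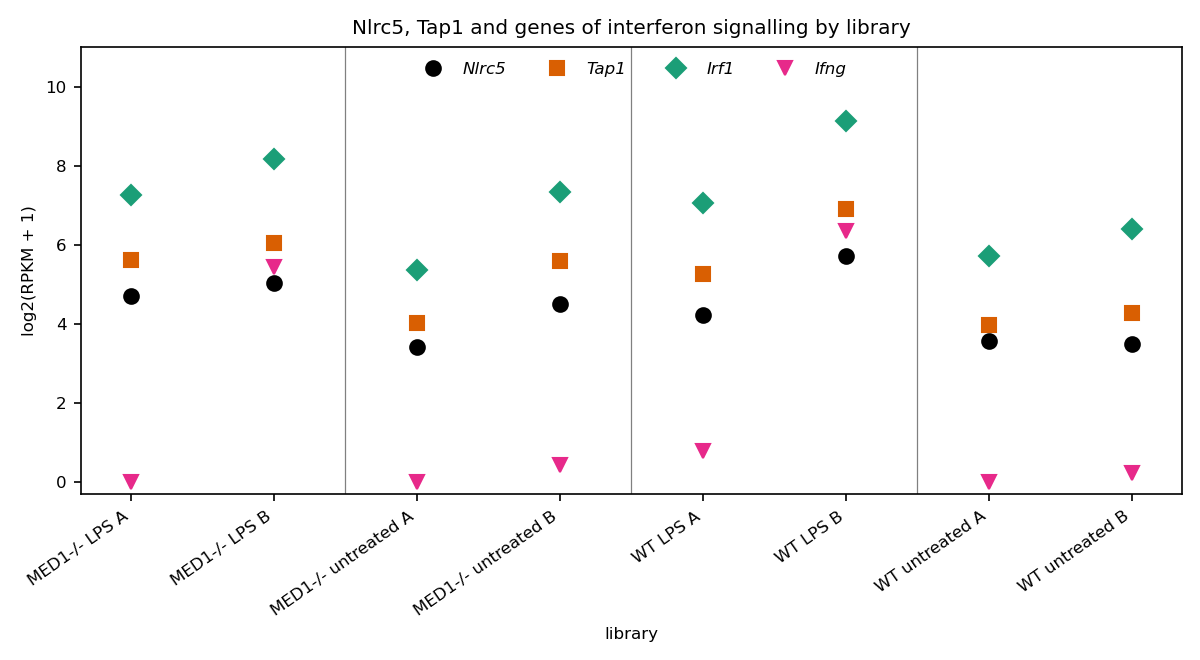
Log2(RPKM + 1) of Nlrc5, Tap1, Irf1 and Ifng in each library, with vertical lines between groups. Ifng is high in the B libraries with LPS alone (42.5 and 81.2 RPKM), while the other 3 genes are also higher with LPS in the A libraries, and in MED1-/- untreated B than in MED1-/- untreated A.

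The loci most like Tap1 over the 8 libraries, by Pearson's r of log2(RPKM + 1), were Irgm2 (0.998), Igtp (0.996), Tgtp2 (0.991), the joint locus of Serpina3f and Serpina3g (0.990) and Gm12250 (0.989). Those most like Nlrc5 were Irgm2 and Irgm1 (both 0.986), the Serpina3f and Serpina3g locus (0.985), Tgtp2 and Arid5a (both 0.983). Irgm1, Irgm2, Igtp and Tgtp2 encode interferon-inducible GTPases. Irgm2 stood at 32.3 and 46.0 RPKM in MED1-/- with LPS, 5.65 and 30.1 in MED1-/- without, 20.9 and 90.7 in WT with LPS and 5.21 and 6.82 in WT without. These values are the top of a ranking of all loci and the libraries fall by treatment, so they describe the pattern alone.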

How the data were processed

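The deposited table holds RPKM values per locus, which the authors computed; per the submitters' processing notes they used bcl2fastq, TopHat2 2.0.14, Cufflinks 2.2.1 and the mm9 build. Strandedness and annotation: not given in the sources used here. Its 24192 lines hold 23735 loci (457 lines repeat a locus), each used in 1 row. Since RPKM carries no counts, the spacing of the low values served to estimate depth: 91.9% of 3230 low loci held only whole multiples of 1 step, within 0.1 read plus 0.02 per read. Such estimates cover counting error only.

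The 11272 loci reaching 1 RPKM in 2 or more libraries were analysed as log2(RPKM + 1), which understates changes of low genes. Limma 3.58.1 in R 4.3.3 fitted 1 mean per group over all 8 libraries, with a variance trend. Tests were two-sided, and calls needed a Benjamini-Hochberg adjusted p under 0.05 over all loci. The fit was tested on simulated data with independent noise, large planted changes and no correlation by letter. That test does not show how the fit performs at the spread of these libraries. Python 3.11.15 was used for tables, depth and figures, with matplotlib 3.10.9, pandas 2.3.3 and numpy 2.4.6.

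The labels do not say what the letters stand for. Deviations from group means correlated by letter across loci in all 6 pairs of groups (r 0.20 to 0.41). The main fit leaves the letter out, and an alternative fit used it as a block. Other alternatives were pseudocounts of 0.1 and 0.5, no filter, a filter at 5 RPKM, median-ratio scaling, quantile normalization, no variance trend, and leaving out each library.

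The members and gene lists were chosen with earlier results of these data known. All 10 members are named, with up to 4 genes per list by size of change and a set of interferon, proteasome and loading genes, and the 5 loci most like Tap1 and Nlrc5. The rule does not cover Stat2, Rela, Ifngr1 and Blmh, which were picked once their values had been seen. Positions are from GENCODE vM1 (NCBIM37, the same assembly as mm9) and promoter windows from RefSeq (GRCm38.p6).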

Additional observations from a re-analysis of the deposited data

How the results depend on the processing

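For LPS averaged over genotypes (3 members and 3410 loci called), 1 member was called with no filter, and 2034 loci without MED1-/- untreated B and WT LPS B, an alternative chosen after seeing the data. For LPS in MED1-/- (0 members, 746 loci), 262 loci were called with no filter and 1611 with the letter as a replicate block; without those 2 libraries 2 members were called. For LPS in WT (0 members, 711 loci), 270 loci were called with no filter, 1818 with the letter as a block and 24 without those 2 libraries, and 1 member (Tap2) was called with median-ratio scaling and 3 with the block. The block changed no other member's call.

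For MED1-/- with LPS (1 locus), 2 loci were called with no filter and 3 without those 2 libraries. Averaged over treatments (4 loci), 2 were called with a pseudocount of 0.1 and 2 with a filter at 5 RPKM. For the interaction (4 loci), 0 were called under each of those settings. No member was called in a comparison of genotypes, or in the interaction, under any alternative.

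Leaving out 1 library at a time gave 1121 to 4528 loci and 0 to 4 members for LPS averaged, 20 to 1554 loci for LPS in MED1-/-, and 7 to 2244 loci and 0 to 2 members for LPS in WT. It gave 0 to 6 loci for MED1-/- with LPS, 0 to 6 averaged over treatments and 1 to 7 for the interaction. A group left with 1 library was assumed to vary like the others. The sign of the LPS change averaged over genotypes held under all 17 alternatives for 6 of 10 members, the exceptions being H2-K1, B2m, Tapbp and Psmb10. The cause of these shifts was not tested. Depth limits none of the members, whereas 2 libraries a group limit all of them.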
